A study of Mus musculus with 4 samples.

Results

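The 33 mouse collagen genes other than those of collagen IV were followed in cultured stromal cells with and without Asxl1, a partner of the histone deubiquitinase BAP1 on chromatin. They were chosen by symbol from the deposited gene table, 33 of 23997 symbols, and each had 1 row. The cells were mesenchymal stem/progenitor cells (MSPC), fibroblast-like cells grown out of bone marrow, on a C57BL/6 background at passages 5 to 10, in MesenCult medium with 20% supplement. The wild-type (WT) group and the Asxl1-/- group had 2 libraries each. Only the genotype label separates the groups, and the sources used here give no driver or Cre for the deletion. No label states that the libraries of a group are separate animals or cultures, so the p-values measure the spread between these libraries, which may be technical.

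Collagens are secreted proteins in which 3 chains wind into a triple helix. Fibrillar collagens form the cross-banded fibrils of bone, tendon, skin and cartilage. FACIT collagens (fibril-associated, with interrupted helices) sit on the surface of those fibrils. Network-forming short chains build hexagonal lattices, collagen VI builds beaded filaments around cells, and transmembrane collagens stay anchored in the plasma membrane. Marrow stroma is known above all for type I collagen, the collagen that osteoblasts deposit and mineralize, and for type III collagen, which forms reticular fibres.

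Values are FPKM, that is, fragments per length of transcript and per number mapped, so genes can be compared with each other. Asxl1 levels followed the genotype labels, with 14.6 and 11.2 FPKM in WT against 0.273 and 0.312 FPKM in Asxl1-/-. Read numbers are unknown, and the steps of low values put the depth of the other libraries at 0.955 to 1.03 times that of WT replicate 1. Of 10 mesenchymal markers, 7 to 9 reached 1 FPKM per library, and Lepr stayed below it in all 4. The 11 macrophage markers found summed to 7.34 and 513 FPKM in WT replicates 1 and 2 and to 81.2 and 347 FPKM in Asxl1-/- replicates 1 and 2, with 72.2 of the 81.2 from Fcer1g alone. For 0 of these 11 did the groups separate, and likewise for 0 of 6 endothelial markers, but in other lists some genes separated. Of the 10 mesenchymal markers, 4 were lower in Asxl1-/- without overlap and 1 was higher. Lower without overlap were also 2 of 6 osteoblast, 2 of 4 smooth muscle and 1 of 5 epithelial markers, with 0 higher. Of 6 cartilage markers, 1 was lower and 1 higher. Of all genes tested for a difference, 25.2% were lower without overlap and 15.6% higher. Among the markers counted, Cdh1 (epithelial), Myh11 (smooth muscle) and Matn3 (cartilage, higher) stayed under 1 FPKM in every library. The osteoblast markers counted, Alpl and Dmp1, exceeded 1 FPKM only in WT replicate 2. These marker counts therefore support no loss of a cell type by themselves. The 6 osteoblast markers summed to 20.8 FPKM in WT replicate 2 and to at most 1.08 FPKM elsewhere. Epithelial markers were at most 0.207 FPKM, and of 6 endothelial markers only Cdh5, at 7.11 FPKM in Asxl1-/- replicate 2, reached 1 FPKM in any library.

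The expressed collagens did not all lie on one side. Col28a1, Col8a1 and Col10a1 stood several-fold higher in both Asxl1-/- libraries, while Col6a1, Col6a2, Col1a2, Col18a1, Col27a1 and Col11a1 stood lower in both. Col1a1, with the highest mean level of all, overlapped between the groups. None of these differences passed the adjusted threshold in the test across all genes, and neither did that of Asxl1 itself.

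Genes were tested where their mean reached 1 FPKM, and 21 of the 33 collagens met this. For Col28a1, Col10a1 and Col11a2 this was so only through the Asxl1-/- libraries, since their WT means were under 1 FPKM. Fold changes are differences of log2(FPKM + 1), Asxl1-/- minus WT, which understates the change of low genes. By limma, 0 of the 21 passed a Benjamini-Hochberg adjusted p of 0.05, where 3 of all 11481 genes tested did, or 0.0261%. Asxl1 itself did not pass, with a log2 fold change of -3.41 (standard error 0.29, limma adjusted p = 0.215). A gene that does not pass is therefore not shown to be unchanged. Adjusted p of the 21 ran from 0.369 for Col28a1 to 0.936 for Col16a1. At an unadjusted p under 0.05, 3 were higher and 4 lower, against 2.51% and 5.41% of all genes tested. The 3 higher include Col28a1 and Col10a1, which entered only through their Asxl1-/- libraries, so their number is no support either. The groups did not overlap for 12 of the 21. Of these, 5 had both Asxl1-/- libraries higher (15.6% of all genes tested) and 7 had both lower (25.2% of all genes tested). The 5 include the 3 genes that entered only through their Asxl1-/- libraries, so this count supports nothing by itself. With 2 libraries against 2, an exact two-sided permutation test cannot go below 0.333 for a single gene. In the authors' deposited table, which has 24 of the 33 as tested, 2 collagens (Col8a1 and Col28a1) were marked significantly higher and 1 (Col11a1) lower. Col10a1, Col6a1, Col6a2 and Col1a2 were not marked there (q = 0.999 each), nor were Col18a1 (q = 0.590) and Col27a1 (q = 0.514). There, 0.543% of genes tested were marked higher and 0.396% lower. That table rests on the same libraries and is no independent evidence.

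**Figure D1:**
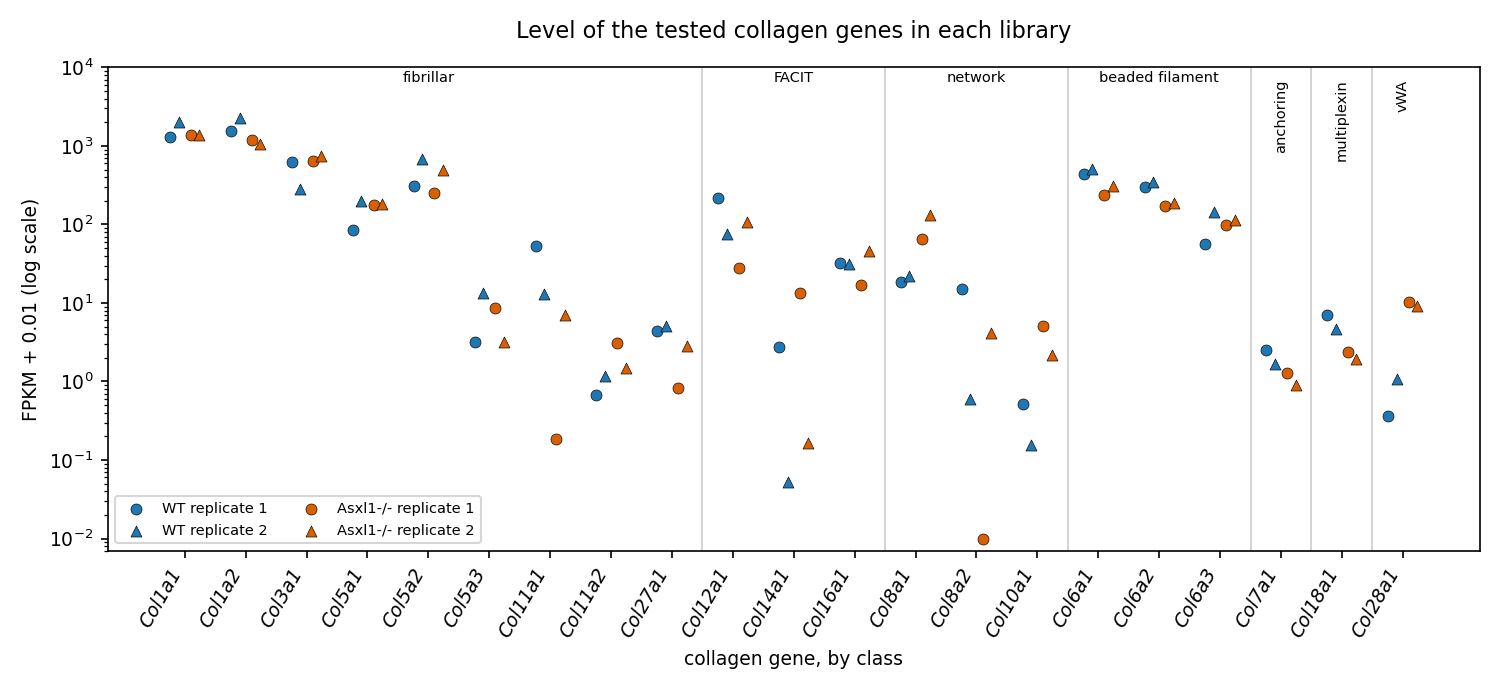
FPKM + 0.01 on a log scale for the 21 tested collagens, by class, with 1 point per library (WT blue, Asxl1-/- orange; circles replicate 1, triangles replicate 2). Col28a1, Col8a1 and Col10a1 have both orange points above both blue ones, and Col8a2 spans 15.0 FPKM to a value listed at 0.

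The collagen with the smallest p was Col28a1 (chromosome 6, 7997808 to 8192617), a collagen with von Willebrand factor A domains that is known mostly from the surroundings of peripheral glia. It stood at 0.359 and 1.07 FPKM in WT and at 10.2 and 9.03 FPKM in Asxl1-/-. Both Asxl1-/- libraries were close to each other and far above both WT libraries. The group means were 0.716 ± 0.505 and 9.61 ± 0.819 FPKM (SD, n = 2 each), 13.4-fold apart. The log2 fold change was 2.66 (standard error 0.34, limma adjusted p = 0.369), which placed Col28a1 24th by p and 46th by upward fold change among 11481 genes. Col28a1 entered the test only through its Asxl1-/- libraries, so these ranks support nothing by themselves. In the authors' deposited table it had group values of 0.842 and 12.1 FPKM and a q of 0.0153.

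The higher gene with the next smallest p was Col8a1 (chromosome 16, 57624256 to 57754737), which encodes a short-chain collagen of vessel walls and of the basement membrane of the corneal endothelium. It stood at 18.6 and 21.9 FPKM in WT and at 65.2 and 133 FPKM in Asxl1-/-. The WT libraries were close together, and the Asxl1-/- libraries lay above them but differed among themselves by 1.02 on the log2 scale. The log2 fold change was 2.16 (standard error 0.41, limma adjusted p = 0.502). The q in the authors' deposited table was 0.00836.

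Its partner chain gene Col8a2 did not follow. Col8a2 stood at 15.0 and 0.589 FPKM in WT, was listed at 0 in Asxl1-/- replicate 1 and stood at 4.08 FPKM in Asxl1-/- replicate 2. Each group held a high and a low library, so the groups overlapped. Its log2 fold change of -1.16 had a standard error of 1.38, it was -2.32 with a pseudocount of 0.1, and without WT replicate 1 it was 0.50. Col8a1 was therefore 1.24 times Col8a2 in WT replicate 1 but 37.1 times in WT replicate 2 and 32.7 times in Asxl1-/- replicate 2.

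The third network-forming gene, Col10a1 (chromosome 10, 34389981 to 34397085), is a marker of hypertrophic cartilage. It stood at 0.508 and 0.145 FPKM in WT and at 5.11 and 2.19 FPKM in Asxl1-/-. Both Asxl1-/- libraries were higher, at a low level. The group means of 0.327 and 3.65 FPKM were 11.2-fold apart, against 4.91-fold for Col8a1. The log2 fold change was 1.75 (standard error 0.48, limma adjusted p = 0.552), and 3.16 with a pseudocount of 0.1. In GENCODE an exon of Nt5dc1 overlaps its exons on the opposite strand. Since the strandedness of the libraries is not given in the sources used here, reads of the pair cannot be told apart. Exons of other annotated genes likewise overlap those of Col3a1, Col5a1, Col7a1, Col9a3, Col15a1 and Col22a1. Of other cartilage markers, Acan, Matn1, Matn3 and Lect1 were below 1 FPKM in all libraries, and Sox9 was at 11.9 and 9.25 FPKM in WT and at 5.96 and 8.61 FPKM in Asxl1-/-.

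These 3 collagens had the largest upward log2 fold changes of the tested collagens, a choice made after the data were seen. The 100 bases before their start sites are printed 5′ to 3′, taken from the RefSeq promoter table (build GRCm38.p6). Col3a1 and Col11a2, also higher in both Asxl1-/- libraries, are not printed. Capitals mark TATAAA and GGGCGG on either strand, and CCAAT was searched as well. The ranges are chr6:8192618-8192717 for Col28a1 and chr16:57754738-57754837 for Col8a1, both on the minus strand, and chr10:34389881-34389980 for Col10a1 on the plus strand.
Col28a1: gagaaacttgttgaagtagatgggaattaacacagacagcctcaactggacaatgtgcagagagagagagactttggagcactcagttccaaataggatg
Col8a1: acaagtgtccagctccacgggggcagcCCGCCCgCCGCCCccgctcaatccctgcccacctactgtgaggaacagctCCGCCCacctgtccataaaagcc
Col10a1: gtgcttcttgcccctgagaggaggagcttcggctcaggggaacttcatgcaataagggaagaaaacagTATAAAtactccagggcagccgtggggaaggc

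The 3 sequences differ in these letters. Col10a1 has TATAAA from 32 to 27 bases before its start, Col8a1 has 3 copies of GGGCGG on the other strand, and Col28a1 has no match to the 3 motifs. In the 250 bases before the start, Col28a1 has 0 CpG pairs, Col10a1 has 5 and Col8a1 has 10, against a median of 6 over 32851 promoters. Col3a1 has 0 and Col11a2 has 14, and each of these holds TATAAA there. Of the 26 collagens with an entry, 5 hold TATAAA there, 8 hold CCAAT and 15 hold GGGCGG, and the shares over all promoters were 12.4%, 33.8% and 32.7%. These are matches of letters and no evidence of binding.

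Fibrillar collagens held 78.4% to 84.9% of the summed FPKM of the 33 genes in every library. Of the 11, 9 were tested. Their median log2 fold change was -0.29, against -0.07 for all genes tested. It was -0.92 without WT replicate 1 and 0.13 without WT replicate 2.

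The chains of type I collagen, the main protein of bone and tendon, differed from each other. Col1a1 (chromosome 11, 94936270 to 94951856) stood at 1298 and 2043 FPKM in WT and at 1395 and 1395 FPKM in Asxl1-/-. The WT libraries lay on either side of the Asxl1-/- libraries. Its log2 fold change of -0.22 (standard error 0.33) was smaller than the gap between the WT libraries, and it was 0.073 after quantile normalization and 0.10 without WT replicate 2. Col1a2 (chromosome 6, 4505697 to 4541543) stood at 1564 and 2284 FPKM in WT and at 1178 and 1049 FPKM in Asxl1-/-, lower in both. Its log2 fold change was -0.76 (standard error 0.32, limma adjusted p = 0.632), or -0.48 after quantile normalization and -0.49 without WT replicate 2. The 2 chains assemble into 1 trimer, so their ratio was taken within each library, where library scaling cancels. Col1a1 was 0.830 and 0.894 times Col1a2 in WT, and 1.18 and 1.33 times in Asxl1-/-. Col1a1 was the lower chain in both WT libraries and the higher one in both Asxl1-/- libraries.

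Col3a1, which encodes type III collagen of soft and vascular tissue, stood at 625 and 283 FPKM in WT and at 637 and 738 FPKM in Asxl1-/-. Both Asxl1-/- libraries were higher, but WT replicate 1 lay close to them, and the log2 fold change of 0.70 (standard error 0.45) was 0.13 without WT replicate 2. Its neighbour Col5a2, 24.6 kb away on chromosome 1, did not run parallel. Col5a2 stood at 311 and 672 FPKM in WT and at 254 and 494 FPKM in Asxl1-/-, and Col3a1 was lowest where Col5a2 was highest.

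Type V chains are built into type I fibrils and limit their width. Col5a1 stood at 86.1 and 200.4 FPKM in WT and at 177 and 182 FPKM in Asxl1-/-. Col5a3 stood at 3.21 and 13.3 FPKM in WT and at 8.55 and 3.20 FPKM in Asxl1-/-. The groups overlapped for all 3 type V genes, and the fold change had the other sign without WT replicate 1 for Col5a1 and without WT replicate 2 for Col5a2 and Col5a3. Col1a1, Col1a2 and all 3 type V genes were highest in WT replicate 2, the library with the osteoblast markers. That library stood apart in another way as well. Rows spanning under 300 bp held 40.9% of its summed FPKM, against 21.4% to 24.9% elsewhere. The 4 smooth muscle markers summed to 1993 FPKM in WT replicate 2, near the 1869 FPKM of Asxl1-/- replicate 2. They summed to 675 FPKM in WT replicate 1 and to 1168 FPKM in Asxl1-/- replicate 1. The part of any of these in the collagen levels was not tested, and in bulk RNA more cells of a type and more RNA per cell cannot be told apart.

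Minor fibrillar collagens of cartilage and bone made up the rest of the class. Col11a1 (chromosome 3, 114030540 to 114220326), whose chain nucleates fibrils in cartilage, stood at 53.7 and 13.2 FPKM in WT and at 0.177 and 7.07 FPKM in Asxl1-/-. Both Asxl1-/- libraries were lower, but the lower WT library and the higher Asxl1-/- library were less than 2-fold apart. The log2 fold change was -3.18 (standard error 1.14, limma adjusted p = 0.617), and -1.79 without Asxl1-/- replicate 1. In the authors' deposited table Col11a1 had group values of 38.0 and 4.56 FPKM and a q of 0.00836. Comp, a cartilage matrix gene, stood at 10.2 FPKM in WT replicate 1, where Col11a1 was highest, and at most at 0.252 FPKM elsewhere; the part of cartilage-like cells was not tested.

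Col11a2, the partner chain gene of Col11a1, lay on the other side. It stood at 0.667 and 1.15 FPKM in WT and at 3.06 and 1.48 FPKM in Asxl1-/-, with a log2 fold change of 0.74 (standard error 0.43), 1.19 with a pseudocount of 0.1 and 0.39 without Asxl1-/- replicate 1. Col11a1 was thus 80.5 and 11.5 times Col11a2 in WT, against 0.0578 and 4.79 times in Asxl1-/-. Col27a1, a collagen of cartilage with a short helix interruption, stood at 4.44 and 5.05 FPKM in WT and at 0.816 and 2.82 FPKM in Asxl1-/-. Both were lower, with a log2 fold change of -1.12 (standard error 0.45), or -0.59 without Asxl1-/- replicate 1. Col24a1, a bone collagen with a mean under 1 FPKM, was not tested. It stood at 1.24 and 1.28 FPKM in WT and at 0.276 and 0.0914 FPKM in Asxl1-/-, and its unadjusted p in the authors' deposited table was 0.0368 (q = 0.603). Col2a1, the main collagen of cartilage, reached at most 0.546 FPKM.

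**Figure D2:**
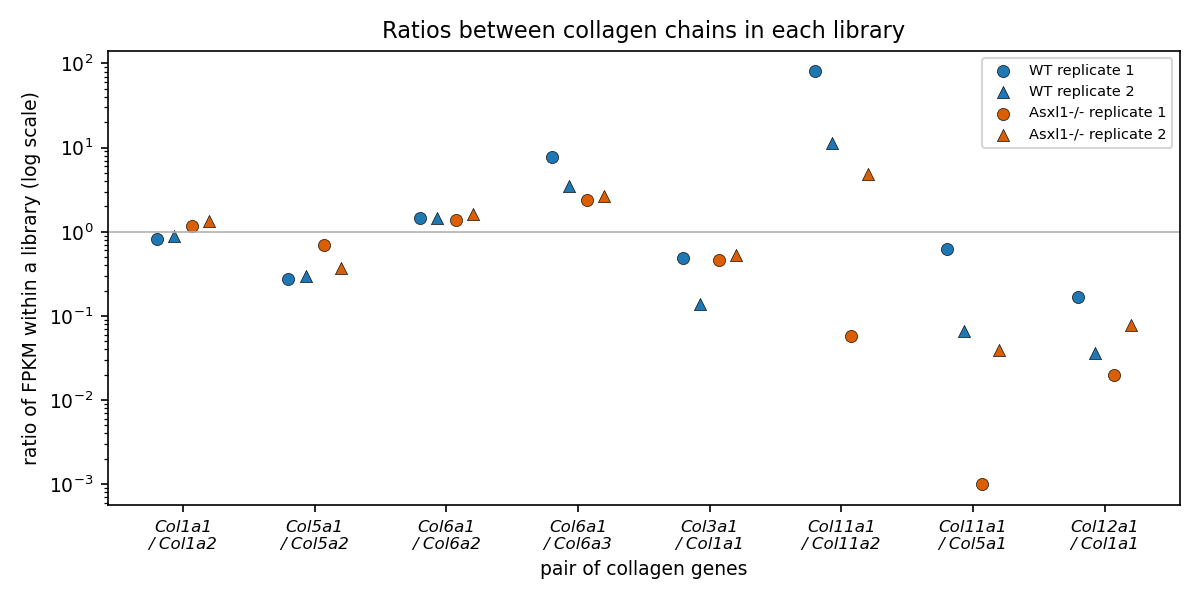
Ratio of the FPKM of a pair of collagen genes within each library, on a log scale, with 1 point per library (WT blue, Asxl1-/- orange; circles replicate 1, triangles replicate 2) and a grey line at 1. Col1a1/Col1a2 lies below 1 in both WT libraries and above 1 in both Asxl1-/- libraries, while Col6a1/Col6a2 lies between 1.38 and 1.61 in all 4.

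Collagen VI forms beaded filaments close to the cell surface and is a trimer of 3 different chains. Col6a1 (chromosome 10, 76708792 to 76726044) stood at 435 and 508 FPKM in WT and at 236 and 306 FPKM in Asxl1-/-. Col6a2 (chromosome 10, 76595756 to 76623404) stood at 300.01 and 351 FPKM in WT and at 170 and 190 FPKM in Asxl1-/-. Both genes lay lower in both Asxl1-/- libraries, with narrow gaps within each group. The log2 fold changes were -0.81 for Col6a1 (standard error 0.28, limma adjusted p = 0.605) and -0.85 for Col6a2 (standard error 0.25, limma adjusted p = 0.564), the smallest standard error of the 21. The genes are 85.4 kb apart. The level of Col6a1 was 1.38 to 1.61 times that of Col6a2 in every library.

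The third chain gene, Col6a3, on chromosome 1, differed from this pair. It stood at 55.8 and 145 FPKM in WT and at 98.4 and 114 FPKM in Asxl1-/-. The WT libraries were the lowest and the highest, so the groups overlapped. Its log2 fold change was 0.23 (standard error 0.51) and -0.45 without WT replicate 1. Col6a1 was 7.79 and 3.49 times Col6a3 in WT, against 2.40 and 2.68 times in Asxl1-/-. The pairs of chains compared here were picked after the levels were seen.

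Multiplexins are collagens of basement membrane zones that carry sugar chains. Col18a1, whose C-terminal fragment is endostatin, stood at 7.04 and 4.61 FPKM in WT and at 2.38 and 1.94 FPKM in Asxl1-/-. Both Asxl1-/- libraries were lower, with a log2 fold change of -1.09 (standard error 0.32, limma adjusted p = 0.562). It lies 326 kb from Col6a1 on chromosome 10. Its relative Col15a1 was not tested, having a mean under 1 FPKM, and stood at 1.10 and 1.20 FPKM in WT and at 0.266 and 0.520 FPKM in Asxl1-/-. Col7a1, which builds the anchoring fibrils of skin, stood at 2.49 and 1.66 FPKM in WT and at 1.29 and 0.893 FPKM in Asxl1-/- (log2 fold change -0.55, standard error 0.37; -0.86 with a pseudocount of 0.1, -0.33 after quantile normalization and -0.35 without WT replicate 1).

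Col4a1 and Col4a2, the main basement membrane collagens and no members of the group described, lay on the opposite side from these genes. Col4a2 stood at 54.4 and 26.4 FPKM in WT and at 213 and 611 FPKM in Asxl1-/-, with a log2 fold change of 3.21 (standard error 0.64, limma adjusted p = 0.502).

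Among the FACIT collagens, 3 of 8 were tested and the groups overlapped for all 3. Col12a1, which sits on type I fibrils, stood at 217 and 74.7 FPKM in WT and at 27.9 and 108 FPKM in Asxl1-/-. The highest library was a WT one and the lowest an Asxl1-/- one, but the other libraries crossed. Its log2 fold change of -1.19 (standard error 0.84) ran from -2.15 to -0.24 with 1 library left out. Col14a1, a fibril-surface collagen of resting connective tissue, stood at 2.71 and 0.0431 FPKM in WT and at 13.3 and 0.152 FPKM in Asxl1-/-. It was high in both libraries numbered 1 and near 0 in both numbered 2. Its log2 fold change of 1.05 had a standard error of 1.38 and was -0.77 without Asxl1-/- replicate 1. The libraries where Col14a1 was near 0 were those with 10 of 11 macrophage markers at 1 FPKM or more, against 3 of 11 in the others, and the part of macrophages in this was not tested. Col16a1 stood at 32.6 and 31.8 FPKM in WT and at 17.0 and 45.9 FPKM in Asxl1-/- (log2 fold change -0.19, standard error 0.50; 0.50 without Asxl1-/- replicate 1). The Asxl1-/- libraries lay on either side of the WT pair.

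The other FACIT genes were low. Col9a1, Col9a2 and Col9a3 encode type IX collagen, which decorates type II fibrils in cartilage. Their highest values were 0.0138, 0.0751 and 0.757 FPKM. Col19a1 reached 0.00743 FPKM and Col22a1, a collagen of the muscle-tendon junction, 0.0715 FPKM.

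None of the 4 transmembrane collagens reached 1 FPKM in any library, so none was tested. Col17a1, a component of the hemidesmosomes of epithelia, reached 0.144 FPKM, and Col23a1 reached 0.141 FPKM. Col13a1, which is known at the neuromuscular junction, stood at 0.0424 and 0.0287 FPKM in WT and was listed at 0 in both Asxl1-/- libraries. Col25a1, which acts in motor innervation, stood at 0.0289 and 0.0591 FPKM in WT and was likewise listed at 0. Both WT libraries exceeded both Asxl1-/- libraries for each of the 4, at levels where a value may rest on very few fragments. The share of other genes this low that do so was not taken, so this count supports nothing by itself.

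**Figure D3:**
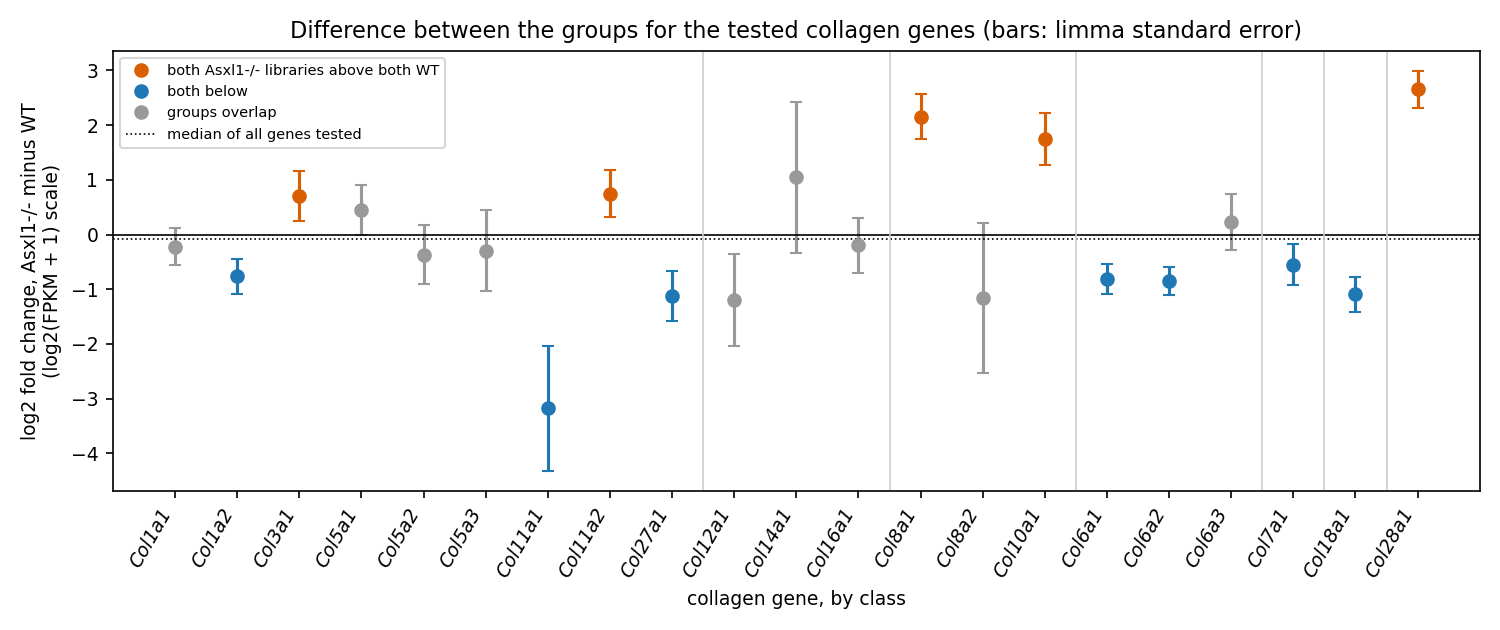
Log2 fold change (Asxl1-/- minus WT, log2(FPKM + 1) scale) of the 21 tested collagens by class, with limma standard errors as bars. Orange points mark the 5 genes with both Asxl1-/- libraries above both WT libraries, blue points the 7 with both below and grey points the 9 that overlap; the dotted line is the median of all genes tested, -0.07.

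The libraries of a group often differed by more than the groups did. For 10 of the 21 collagens the larger gap between 2 libraries of a group exceeded the log2 fold change. On the log2(FPKM + 1) scale the WT libraries were more than 1 apart for 9 genes and the Asxl1-/- libraries for 8. The median standard error of the 21 was 0.45, against 0.31 over all genes tested. Differences clear of these gaps were those of Col28a1, Col8a1, Col10a1, Col18a1, Col6a1, Col6a2, Col1a2, Col7a1, Col27a1, Col11a2 and Col11a1. The margin was small for Col27a1 and Col11a2, and Col11a1 had a gap of 2.78. The same counts were not taken over all genes tested, so they do not set the collagens apart from other genes.

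**Figure D4:**
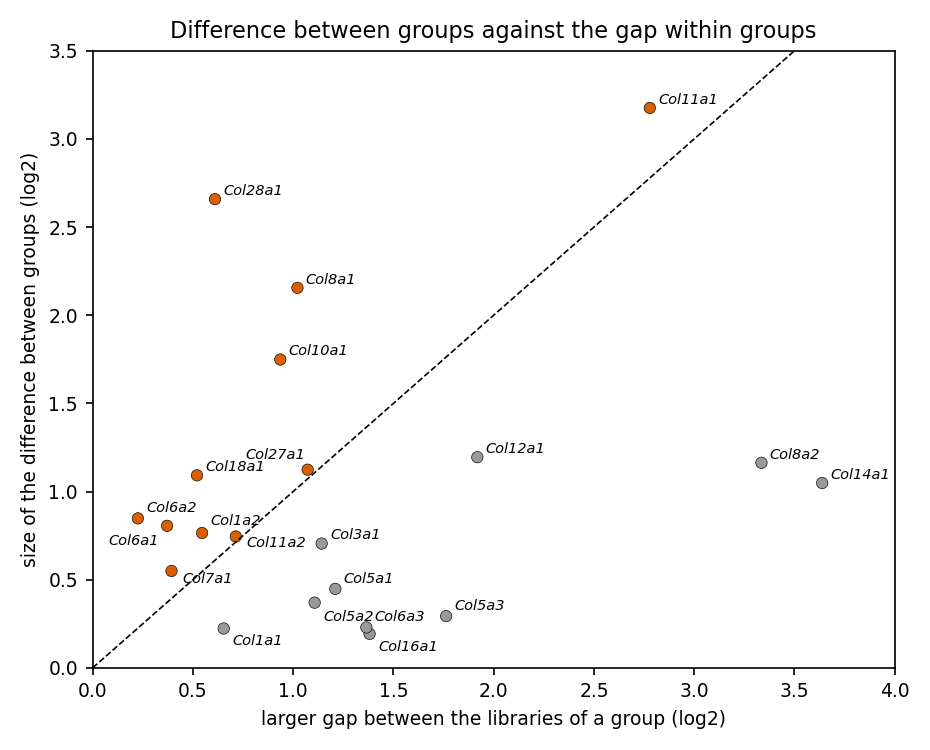
Size of the log2 fold change (y axis) against the larger log2 gap between the 2 libraries of a group (x axis) for the 21 tested collagens, with equality as a dashed line. The 11 orange genes above the line include Col28a1 at 2.66 over a gap of 0.61, and the 10 grey genes below it include Col14a1 at 1.05 over a gap of 3.64.

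The difference was also taken between libraries alike in macrophage markers, a pairing chosen after the data were seen. Asxl1-/- replicate 1 minus WT replicate 1, with fewer of these markers at 1 FPKM, gave 3.04 for Col28a1, 1.75 for Col8a1, -0.88 for Col6a1 and -0.81 for Col6a2 on the log2 scale. Between the replicates numbered 2, with more of them, the values were 2.27, 2.56, -0.73 and -0.88. Since the groups of these 4 genes do not overlap, their sign is fixed and the values give the size alone. For Col12a1 they were -2.92 and 0.53, and for Col5a3 1.18 and -1.77.

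Genes that make, handle or regulate collagen, and the collagens outside the group described, were taken from fixed lists. Of their 62 tested genes, 0 passed the adjusted limma threshold. At an unadjusted p under 0.05, 5 were higher, Col4a1 and Col4a2 among them, and 7 lower, against 2.51% and 5.41% of all genes tested. The 7 include Mmp9, which entered only through its WT libraries. No list was tested as a set. Of 21 tested genes for chain modification and folding, 7 had both Asxl1-/- libraries above both WT libraries and 1 below (15.6% and 25.2% of all genes tested). P4ha2, a catalytic subunit of the prolyl hydroxylase that stabilizes the helix, stood at 38.5 and 46.0 FPKM in WT and at 83.5 and 85.8 FPKM in Asxl1-/-. Its relative P4ha3 stood at 32.7 and 22.3 FPKM in WT and at 7.65 and 13.7 FPKM in Asxl1-/-, the only gene of the list below.

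Of 9 tested genes for propeptide processing and crosslinking, 3 lay above (15.6% of all genes) and 1 below (25.2%). The 3 were Lox, Loxl1 and Loxl2, which encode lysyl oxidases, the enzymes that start crosslinks. The 1 below, Loxl4, encodes a lysyl oxidase too, at 10.8 and 9.25 FPKM in WT and at 8.66 and 3.55 FPKM in Asxl1-/-, and the groups overlapped for Loxl3. Loxl1 stood at 19.0 and 35.9 FPKM in WT and at 83.4 and 91.0 FPKM in Asxl1-/-, and Loxl2 at 14.2 and 54.5 FPKM against 145 and 80.6 FPKM. Of 11 tested fibril-associated proteins 5 lay below (25.2% of all genes) and 1 above (15.6%). Ogn, a small leucine-rich proteoglycan, stood at 538 and 314 FPKM in WT and at 205 and 138 FPKM in Asxl1-/-, and Podn at 5.16 and 9.23 FPKM against 1.60 and 2.74 FPKM.

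Of 6 tested collagen receptors 2 lay above (15.6% of all genes) and 0 below (25.2%). These were the discoidin domain receptors, kinases that bind the collagen helix. Ddr1 stood at 11.1 and 14.3 FPKM in WT and at 18.6 and 19.9 FPKM in Asxl1-/-, and Ddr2 at 58.5 and 62.8 FPKM against 101 and 68.1 FPKM. Of 6 tested collagen-degrading enzymes 1 lay above and 1 below, against the same shares. The membrane collagenase Mmp14 stood at 219 and 250.3 FPKM in WT and at 356 and 293 FPKM in Asxl1-/-. The gelatinase Mmp9 stood at 3.72 and 0.990 FPKM in WT and at 0.0498 and 0.0805 FPKM in Asxl1-/-. Mmp9 reached the mean of 1 FPKM only through its WT libraries, so its place below supports nothing by itself.

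Of 5 tested regulators of collagen genes 3 lay below (25.2% of all genes) and 0 above (15.6%). Runx2, the master regulator of the osteoblast lineage, stood at 13.6 and 17.6 FPKM in WT and at 5.73 and 7.32 FPKM in Asxl1-/-, with a log2 fold change of -1.14 (standard error 0.26, limma adjusted p = 0.516). The mesenchymal factor Twist1 stood at 30.1 and 17.2 FPKM in WT and at 11.9 and 9.67 FPKM in Asxl1-/-. Of the 4 tested collagens outside the group described, 2 lay above (Col4a1 and Col4a2) and 0 below.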

How the data were processed

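RNA was measured in 2 WT and 2 Asxl1-/- MSPC libraries. Per the submitters' processing notes, build mm10 was used with the tools TopHat2 2.0.3, Cufflinks 2.2.1 and Cuffdiff. Which annotation was used, and whether the kit kept strand, is not given in the sources used here. The authors deposited Cufflinks FPKM per library, and a Cuffdiff table with group FPKM, log2 fold changes, p-values and q-values, which was copied and not recomputed. A log version of the FPKM table was not used, nor were 2 columns in each of these 2 tables, 4 in all, that match no sample of the series.

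For a symbol with several rows the row with the highest mean was kept. Symbols with a mean of at least 1 FPKM (11481) entered limma 3.58.1 under R 4.3.3, with lmFit and a trended eBayes, on log2(FPKM + 1) values, without covariates, with Benjamini-Hochberg adjustment at 0.05. The script was tested on simulated data. File starts were raised by 1, after which 22 of 26 collagen starts equalled a RefSeq start of GRCm38.p6. Motifs were searched in 250 bases before the start. Python 3.11.15 was used with matplotlib 3.10.9, pandas 2.3.3 and numpy 2.4.6.

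All 33 collagens are named. From each pathway list the 2 tested genes with the smallest p are named. Lox, Loxl3 and Loxl4 were added so that all tested lysyl oxidases are named. Fcer1g, Comp, Lepr, Cdh5 and the cartilage markers were added for their values. The members and lists were chosen with earlier results of these data known. Alternatives were each library left out, quantile normalization, scaling by median ratios, pseudocounts of 0.5 and 0.1, summed rows, robust eBayes, eBayes without trend, a minimum mean of 5 FPKM, no minimum, and genes spanning 300 bp or more.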

Additional observations from a re-analysis of the deposited data

How the results depend on the processing

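No collagen passed the adjusted limma threshold as reported or under any of the 14 alternatives, where the smallest adjusted p was 0.308. With a mean of at least 5 FPKM, 3 collagens lay above and 4 below both WT libraries, in place of 5 and 7, since fewer genes were tested; with no filter 13 lay below, since more were. With 1 library left out, the counts ran from 6 to 8 above and from 8 to 12 below, since 3 libraries separate more easily than 4. The shares over all genes were not taken under these alternatives, so these counts do not set the collagens apart from other genes. The median of the fibrillar collagens ran from -0.92 without WT replicate 1 to 0.13 without WT replicate 2, and the cause was not tested. That of the other collagens ran from -0.65 to -0.11 with 1 library left out, and was -0.06 with no filter. Of the 21 tested collagens 13 kept their sign throughout. For the 12 whose groups do not overlap, leaving out a library could not change the sign, so this count supports nothing by itself. After quantile normalization Col1a1 was at 0.073. Leaving out each library in turn gave log2 fold changes from -0.55 to 0.10 for Col1a1, -0.16 to 1.05 for Col5a1, -0.92 to 0.18 for Col5a2, -1.17 to 0.59 for Col5a3, -0.77 to 2.87 for Col14a1, -0.88 to 0.50 for Col16a1, -2.83 to 0.50 for Col8a2 and -0.45 to 0.91 for Col6a3. With 1 library in a group, it was assumed to vary like the other group. No paired analysis was possible because the labels give the groups no shared replicate numbers. Depth is unknown, so values under 0.1 FPKM carry no counting interval.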
